A study of Mus musculus with 6 samples.

Results

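The 10 genes followed here are known from pericytes and smooth muscle cells, namely Acta2, Tagln, Myh11, Cnn1, Rgs5, Myl9, Mylk, Cspg4, Actg2 and Lmod1. Some are also made by other cells, as given below. They were chosen by name, and all 10 were found among the 33965 genes of the deposited table. Bulk RNA-seq had been carried out on 6 tumors labelled MC38, a mouse colon carcinoma line, grown subcutaneously in C57BL/6 mice. The hosts of 3 tumors had received PBS and those of the other 3 GB2, a prodrug in which a disulfide bond links the STING agonist MSA-2 to artesunate, described as a TREM2 inhibitor. No genetic alteration of the hosts was stated in either group. The mice were 6 weeks old at purchase. GB2 was given at 10 mg/kg in the MC38 model, although neither the dose nor the time of sampling is stated for the sequenced tumors. Each library is labelled as a tumor of its own, but the labels do not say whether the 3 tumors of a group came from separate mice, so the p-values measure only the spread between these tumors.

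Pericytes sit on capillaries and smooth muscle cells surround larger vessels, and both can narrow a vessel by sliding actin filaments along smooth muscle myosin. Contraction starts when calcium signals activate myosin light chain kinase, which phosphorylates the regulatory light chain of myosin. Activated fibroblasts in tumors can switch on part of the same gene program, and Acta2 and Tagln are therefore also read as markers of cancer-associated fibroblasts. Bulk RNA-seq averages over all cells of a tissue piece, so fewer cells of a type and less RNA per cell cannot be told apart.

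The total counts were between 64764405 and 69878156 in the PBS libraries and between 81210553 and 83690056 in the GB2 libraries, with about 4 counts per read pair. PBS tumor 1 stood apart on the first principal component, which held 34.0% of the variance. The label of the tumors was checked against marker genes, and the data went against it. Pmel, Tyrp1 and Dct, which act in melanin synthesis in pigment cells, lay between 690 and 1840 FPKM (fragments scaled by transcript length and library size) across the 6 tumors, and the summed level of 10 pigment cell genes ran from 3003 to 5353 FPKM. The intestinal transcription factors Cdx1 and Cdx2 reached at most 0.0283 FPKM, and the 6 colon epithelium genes summed to 2.39 to 5.88 FPKM, most of it from Lgals4 at 1.98 to 4.19 FPKM. The epithelial keratin genes Krt8, Krt18 and Krt19 reached at most 1.60 FPKM. The pigment and colon gene lists were chosen after the data were seen, and the tumors are referred to below as the tumors labelled MC38.

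The 10 genes differed widely in level per transcript length. Acta2 was highest, with a mean of 10.7 FPKM over the 6 tumors, followed by Myl9 at 6.71, Rgs5 at 6.16, Tagln at 4.16 and Mylk at 3.62 FPKM. Actg2 had a mean of 1.09 FPKM, Cspg4 of 0.757, Myh11 of 0.447, Lmod1 of 0.216 and Cnn1 of 0.0804 FPKM. The ranges over the tumors overlapped between neighbors in this order, except that Myh11 lay above Lmod1 and Lmod1 above Cnn1 in every tumor without overlap.

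**Figure D1:**
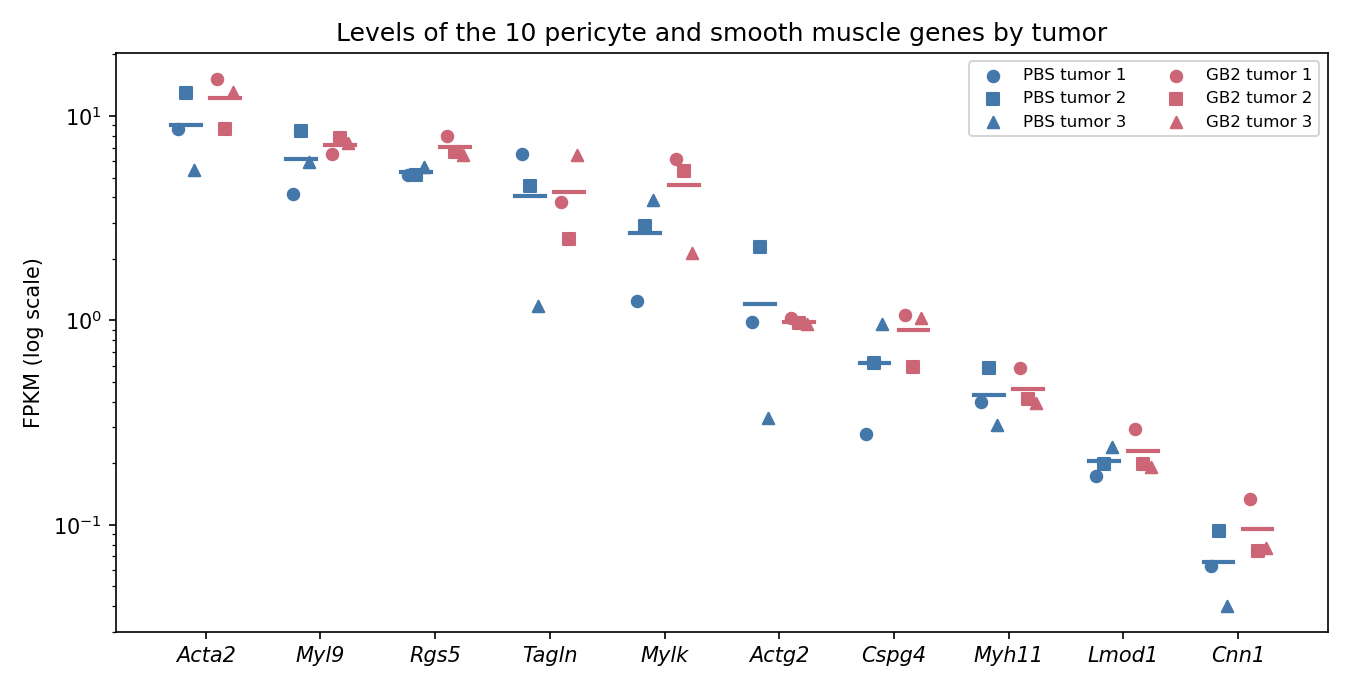
FPKM of the 10 genes on a log axis, in each PBS tumor (blue) and each GB2 tumor (red), with 3 tumors per group. The marker shape gives the tumor number and the bar the mean of the group. The groups overlap in 9 of the 10 genes, and Rgs5 is the one in which the GB2 tumors all lie above the PBS tumors.

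To examine whether the contractile program differed between treated and untreated tumors, GB2 and PBS tumors were compared by edgeR's quasi-likelihood test on all 19602 genes with enough counts. Calls required an adjusted p under 0.05 together with a difference of 2-fold or more. None of the 10 genes was called (0 of 10), against 0% of all genes tested, and the smallest adjusted p among the 10 was 0.757. At an unadjusted p under 0.05, edgeR also gave 0 of the 10 genes, against 1360 genes of the 19602 with no limit on the fold change. DESeq2 called 373 genes in all, 1.49% of 22545 genes as higher and 0.16% as lower in GB2 tumors, and 0 of the 10. A looser rule took an unadjusted p under 0.05 with the same limit on the fold. By this rule 3.74% of all genes were higher in GB2 tumors, 0.918% were lower, and 0 of the 10 passed in either direction. The log2 fold change was above 0 in 8 genes and below 0 in 2, where 48.3% of all genes tested were above 0. The median was 0.25 beside -0.02 over all genes tested, and it ran from 0.13 to 0.43 as each tumor was left out. All fold changes below come from the counts, whereas levels are given in FPKM.

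**Figure D2:**
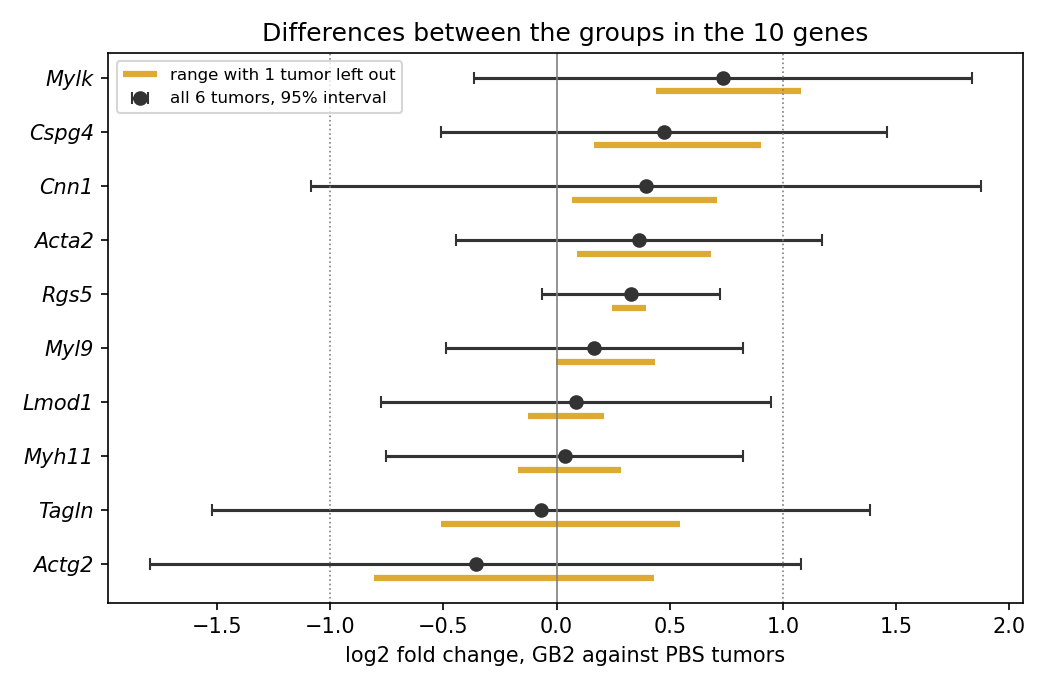
Log2 fold change of each gene, GB2 against PBS tumors, from edgeR's quasi-likelihood fit (black points, 3 tumors per group), with its 95% interval (black bars). Yellow bars span the values obtained when each tumor was left out in turn. Every interval of the 10 genes includes 0, and dotted lines mark a 2-fold difference.

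Acta2 encodes smooth muscle alpha-actin, the main thin filament protein of vascular smooth muscle (ENSMUSG00000035783, chromosome 19 from 34218490 to 34232990, minus strand, in the positions of the table). It was measured at 8.61, 12.98 and 5.42 FPKM in PBS tumors 1, 2 and 3, and at 15.1, 8.67 and 13.1 FPKM in GB2 tumors 1, 2 and 3. The groups overlapped, since GB2 tumor 2 lay below PBS tumor 2 and close to PBS tumor 1. The means were 9.003 ± 3.79 FPKM (SD, n = 3) and 12.3 ± 3.30 FPKM (SD, n = 3). The groups differed by a log2 fold change of 0.36 ± 0.35 (SE, 95% interval -0.44 to 1.17, edgeR adjusted p = 0.821), an interval that holds both no difference and a 2-fold higher level in GB2 tumors. The sign did not change when any tumor was left out, with values between 0.09 and 0.68.

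Actg2 encodes the gamma-actin of enteric and other visceral smooth muscle (ENSMUSG00000059430, chromosome 6 from 83489887 to 83513247, minus strand). Its levels were 0.987, 2.28 and 0.331 FPKM in PBS tumors 1, 2 and 3 and 1.02, 0.974 and 0.956 FPKM in GB2 tumors 1, 2 and 3. The PBS tumors thus enclosed the GB2 tumors on both sides, and the GB2 values were nearly equal. In CPM, the counts scaled to library size, the highest PBS tumor held 6.89 times the level of the lowest, against 1.06 times among GB2 tumors. The log2 fold change of -0.36 ± 0.62 (SE) did not pass edgeR's test (adjusted p = 0.896), and it turned to 0.43 without PBS tumor 2, the tumor with the highest value.

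Acta2 and Actg2 encode nearly the same protein, so reads could in principle be shared between them. In the GRCm38 reference their coding sequences, of 1134 and 1131 bases, were identical at 84.4% of aligned bases, and the longest identical run was 29 bases, shorter than a read of 150 bases. The stretch of 60 coding bases below holds 16 of the 176 differences, which are given in capitals. It crosses the junction of exons 5 and 6 in both genes and lies within chr19:34246199-34246670 for Acta2 and chr6:83520777-83522834 for Actg2, both on the minus strand of GRCm38.
Acta2: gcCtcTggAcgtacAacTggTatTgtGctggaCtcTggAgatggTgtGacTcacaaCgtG
Actg2: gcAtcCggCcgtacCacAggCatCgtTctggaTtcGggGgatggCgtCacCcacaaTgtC
Whether reads were shared was not tested. Acta2 and the skeletal muscle actin gene Acta1 were identical at 85.4% of coding bases, again with a longest run of 29.

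Smooth muscle genes are classically driven by serum response factor, encoded by Srf, which binds CArG boxes in their promoters. The promoter windows from 250 bases before to 50 bases after the transcription start were taken from RefSeq (GRCm38.p6) and matched for 7 of the 10 genes, all except Tagln, Myh11 and Actg2. They were searched for CC, then 6 bases of which at least 5 are A or T, then GG, a form that reads alike on both strands. Acta2 and Myl9 each held 2 matches and the other 5 genes none, and 9.98% of 32851 promoter windows held at least 1. With all 6 middle bases A or T, only Myl9 kept a match among these 7 genes, beside 1.63% of all windows. The windows of both genes are printed with the matches in capitals, Acta2 from chr19:34255324-34255623 on the minus strand and Myl9 from chr2:156775214-156775513 on the plus strand.
Acta2: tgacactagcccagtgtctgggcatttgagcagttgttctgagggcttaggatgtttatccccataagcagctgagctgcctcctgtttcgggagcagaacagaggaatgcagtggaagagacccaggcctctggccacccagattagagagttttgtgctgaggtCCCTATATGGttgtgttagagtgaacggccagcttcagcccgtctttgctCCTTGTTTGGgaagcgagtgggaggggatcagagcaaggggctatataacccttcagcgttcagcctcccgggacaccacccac
Myl9: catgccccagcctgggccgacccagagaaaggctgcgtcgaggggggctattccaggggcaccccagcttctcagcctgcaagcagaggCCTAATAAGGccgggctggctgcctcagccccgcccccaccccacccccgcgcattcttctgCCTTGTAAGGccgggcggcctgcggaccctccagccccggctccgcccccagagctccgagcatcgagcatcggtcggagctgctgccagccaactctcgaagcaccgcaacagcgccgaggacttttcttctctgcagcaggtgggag
The matches began 84 and 34 bases before the start of Acta2, and 161 and 99 bases before the start of Myl9. A match describes the letters only, and binding was not measured.

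The motor of the contractile apparatus was represented by Myh11, the smooth muscle myosin heavy chain, and Myl9, a regulatory light chain. Myh11 (ENSMUSG00000018830, chromosome 16 from 14012399 to 14109236) lay between 0.307 and 0.584 FPKM in PBS tumors and between 0.393 and 0.587 FPKM in GB2 tumors, so the GB2 range fell almost wholly inside the PBS range. Its log2 fold change of 0.04 ± 0.34 (SE, edgeR adjusted p = 0.980) changed sign without PBS tumor 3, to -0.17, and without GB2 tumor 1, to -0.15.

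Myl9 (ENSMUSG00000067818, chromosome 2 from 156617340 to 156623578) was at 4.13, 8.47 and 5.95 FPKM in PBS tumors 1, 2 and 3, and at 6.55, 7.78 and 7.38 FPKM in GB2 tumors 1, 2 and 3. All 3 GB2 values lay between the middle and the highest PBS value. A log2 fold change of 0.17 ± 0.28 (SE, edgeR adjusted p = 0.896) resulted, and it came to -0.00 without PBS tumor 1.

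Mylk encodes the calcium-dependent kinase that phosphorylates the light chain (ENSMUSG00000022836, chromosome 16 from 34565580 to 34822790). With all tumors, though not without PBS tumor 1 or GB2 tumor 2, Mylk had the largest log2 fold change of the 10 genes. Its levels were 1.25, 2.89 and 3.86 FPKM in PBS tumors 1, 2 and 3 and 6.19, 5.41 and 2.14 FPKM in GB2 tumors 1, 2 and 3. GB2 tumors 1 and 2 were above every PBS tumor, while GB2 tumor 3 fell below PBS tumors 2 and 3. This gave a log2 fold change of 0.74 ± 0.47 (SE, 95% interval -0.37 to 1.84, edgeR adjusted p = 0.771). Without GB2 tumor 3 it was 1.08 and Mylk passed the looser rule, the only case among the 10 genes with a tumor left out. In that fit 2.49% of all genes passed as higher. The lowest log2 fold change of Mylk with a tumor left out was 0.44, without PBS tumor 1. The smallest edgeR adjusted p of Mylk with a tumor left out was 0.474. The Mylk gene is known to give a long, a short and a telokin transcript, which the gene-level values do not separate.

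Among the proteins that bind and stabilize thin filaments, Tagln, which encodes transgelin (SM22 alpha), varied most. Tagln (ENSMUSG00000032085, chromosome 9 from 45840917 to 45847356, minus strand) was at 6.53, 4.55 and 1.17 FPKM in PBS tumors 1, 2 and 3 and at 3.80, 2.51 and 6.41 FPKM in GB2 tumors 1, 2 and 3. The GB2 range lay inside the PBS range, with 6.26-fold between the highest and lowest PBS tumor in CPM and 2.46-fold between the GB2 tumors. Tagln had a log2 fold change of -0.07 ± 0.62 (SE, 95% interval -1.52 to 1.39, edgeR adjusted p = 0.980), an interval that spans more than a 2-fold difference in both directions. Its sign was not stable, with values from -0.51 to 0.54 as each tumor was left out. In the table the Tagln gene overlaps Gm48529 on the opposite strand over 3627 bases, and Gm48529 lay at 1.72 FPKM or below. It also overlaps Pcsk7 on that strand over 94 bases, and Pcsk7 lay between 3.98 and 8.63 FPKM, a level like that of Tagln. The libraries were made to keep strand, but whether strand was used in counting is not given in the sources used here.

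Cnn1 encodes calponin, which binds actin and slows the myosin motor, and Lmod1 encodes leiomodin 1, which starts new actin filaments in smooth muscle. Cnn1 (ENSMUSG00000001349, chromosome 9 from 22010512 to 22020926) rested on 2.25 to 8.00 read pairs per tumor, so its log2 fold change of 0.40 ± 0.63 (SE, edgeR adjusted p = 0.891) carried little information at this depth. With a tumor left out, Cnn1 lay between 0.07, without GB2 tumor 1, and 0.71, without PBS tumor 2. Its levels were between 0.0402 and 0.0938 FPKM in PBS tumors and between 0.0745 and 0.134 FPKM in GB2 tumors. Lmod1 (ENSMUSG00000048096, chromosome 1 from 135252545 to 135295803) rested on 12.0 to 24.75 read pairs and ran from 0.174 to 0.240 FPKM in PBS tumors and from 0.192 to 0.296 FPKM in GB2 tumors. For Lmod1 the log2 fold change was 0.09 ± 0.37 (SE, edgeR adjusted p = 0.954), with a change of sign to -0.12 without GB2 tumor 1.

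Rgs5, a regulator of G protein signaling that marks pericytes, had a small spread in both groups (ENSMUSG00000026678, chromosome 1 from 169483070 to 169523382). It was at 5.13, 5.15 and 5.60 FPKM in PBS tumors 1, 2 and 3 and at 7.94, 6.68 and 6.46 FPKM in GB2 tumors 1, 2 and 3. The lowest GB2 tumor exceeded the highest PBS tumor, which also held in CPM. Across all genes tested, 8.61% had every GB2 tumor above every PBS tumor and 6.68% had every GB2 tumor below, so 1 of 10 genes was close to the background. Its log2 fold change was 0.33 ± 0.17 (SE, 95% interval -0.06 to 0.72). It did not pass edgeR's test, with an adjusted p of 0.757, and an exact permutation test (two-sided, 6 tumors) returned p = 0.1, the smallest that 3 against 3 can give. Leaving out each tumor in turn gave values between 0.25 and 0.40, the narrowest span of the 10 genes.

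Cspg4 encodes the NG2 proteoglycan, a surface protein of pericytes that is also made by glial precursors and known as an antigen of melanoma cells (ENSMUSG00000032911, chromosome 9 from 56772317 to 56807154). Its levels were 0.279, 0.620 and 0.961 FPKM in PBS tumors 1, 2 and 3 and 1.06, 0.591 and 1.02 FPKM in GB2 tumors 1, 2 and 3. GB2 tumors 1 and 3 were above every PBS tumor, and GB2 tumor 2 was below PBS tumors 2 and 3. The log2 fold change was 0.47 ± 0.42 (SE, edgeR adjusted p = 0.810), between 0.17 and 0.90 with a tumor left out. The 10 pigment cell genes summed to 4113, 4860 and 3003 FPKM in PBS tumors 1, 2 and 3 and to 5052, 5353 and 4077 FPKM in GB2 tumors 1, 2 and 3, and the part of pigment-gene-expressing cells in the Cspg4 level was not tested.

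The 10 genes did not share a common order of the tumors. In CPM, PBS tumor 3 was the lowest of all 6 tumors for Acta2, Tagln, Myh11, Cnn1 and Actg2, 5 genes of the actin filament and its motor. PBS tumor 1 was the lowest for Myl9, Mylk and Cspg4, PBS tumor 2 for Rgs5 and GB2 tumor 3 for Lmod1. GB2 tumor 1 was the highest for 6 genes, and PBS tumor 2 for Myh11, Myl9 and Actg2. Relative to its mean over the 6 tumors, Tagln was 1.62 lower in PBS tumor 3 on the log2 CPM scale, while Mylk was 0.26 and Cspg4 0.45 higher there. The 6 adipocyte markers, also carried by subcutaneous tissue, were all lowest in PBS tumor 3, summing to 4.50 FPKM against 23.5 and 24.5 in PBS tumors 1 and 2 and 24.01 to 34.6 in GB2 tumors. The 8 keratinocyte markers summed to 11.7 FPKM in PBS tumor 3 and to between 18.2 and 61.0 FPKM in the other tumors. PBS tumor 3 was also the lowest for 6 of 10 fibroblast, 6 of 10 pigment cell, 6 of 10 non-muscle and 5 of 8 macrophage genes. It was the lowest for 7 of 16 contraction signaling genes, 2 of 14 contractile partners, 2 of 14 other pericyte markers and 0 of 10 skeletal muscle markers. The share over all genes was not computed. The part of skin and fat in the levels of the 5 genes was not tested.

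**Figure D3:**
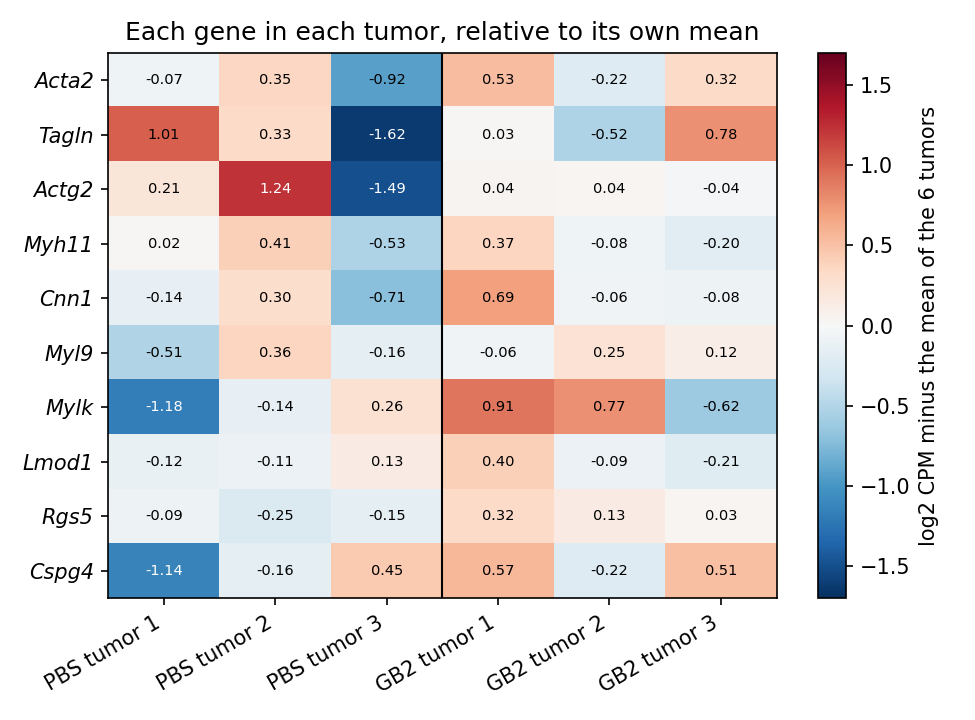
Log2 CPM of each gene in each tumor minus the gene's mean over the 6 tumors, with blue below and red above that mean and the value in each cell. PBS tumor 3 is low for Acta2, Tagln, Actg2, Myh11 and Cnn1 but not for Mylk, Lmod1 or Cspg4, and PBS tumor 1 is low for Mylk and Cspg4.

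Other genes of the contractile apparatus were counted by the same rules, and edgeR called no gene of any list at the adjusted threshold. DESeq2 called 1 of the contractile partners, 2 of the other pericyte markers, 9 fibroblast, 3 endothelial and 6 macrophage markers, all higher in GB2 tumors, against the 1.49% of all genes, and 0 genes of the signaling, regulator, non-muscle, striated and skeletal muscle lists. Of 14 tested partners of the thin filament, intermediate filament and dense bodies, 12 had a log2 fold change above 0, beside 48.3% of all genes. Their median was 0.34, or 0.17 without PBS tumor 1, and 1 passed the looser rule, or 2 without PBS tumor 3, beside 3.74% and 4.02% of all genes. That gene was Des, which encodes the muscle intermediate filament protein desmin. Des was at 2.32, 2.72 and 4.56 FPKM in PBS tumors 1, 2 and 3 and at 7.94, 5.54 and 9.82 FPKM in GB2 tumors 1, 2 and 3, without overlap, with a log2 fold change of 1.21 ± 0.30 (SE, edgeR adjusted p = 0.311). Desmin is shared with skeletal muscle, whose 10 markers were all at a log2 fold change above 0 and summed to 32.8 to 62.9 FPKM in PBS tumors and 68.6 to 80.0 FPKM in GB2 tumors. None of these 10 markers passed the looser rule with all tumors, while 5 did without PBS tumor 3 and 2 without PBS tumor 1 or GB2 tumor 2, beside 4.02%, 4.63% and 3.32% of all genes. The part of skeletal muscle in the Des level was not tested. The most abundant partners, Csrp1, Tpm1 and Flna, which bind or crosslink actin filaments, had log2 fold changes of 0.12, 0.02 and 0.44. As tumors were left out the first 2 changed sign, and Flna lay between 0.23 and 0.59.

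Of 16 genes that signal to the contractile apparatus, 11 were above 0 and 5 below, beside 48.3% of all genes above 0. Their median was 0.15, or 0.25 without PBS tumor 2, and 1 passed the looser rule, close to the 3.74% of all genes. Irag1, a target of cGMP-dependent kinase that restrains calcium release, had a log2 fold change of 1.08 ± 0.44 (SE, edgeR adjusted p = 0.698). No gene of this list passed when PBS tumor 2, PBS tumor 3, GB2 tumor 1 or GB2 tumor 2 was left out. Ppp1r12a, the abundant targeting subunit of myosin phosphatase, had a log2 fold change of -0.04, between -0.12 and 0.14 with a tumor left out, and it is used by most cell types.

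Of 11 regulators of the smooth muscle program, 8 were tested, with a median log2 fold change of 0.11 that ran from 0.01 without PBS tumor 1 to 0.38 without PBS tumor 3. Myocd, the coactivator restricted to cardiac and smooth muscle, had too few counts to be tested, with a mean of 0.0030 FPKM. Srf, with its more widespread coactivators Mrtfa and Mrtfb, had log2 fold changes of -0.16, 0.39 and 0.06. With a tumor left out Srf lay between -0.32 and -0.05, Mrtfa between 0.11 and 0.61 and Mrtfb between -0.20 and 0.36. Tbx18, a transcription factor of mural cells, was the only regulator to pass the looser rule, at 1.57 ± 0.50 (SE, edgeR adjusted p = 0.515) and levels of at most 0.200 FPKM. No regulator passed without GB2 tumor 1 or GB2 tumor 3, and 2 passed without PBS tumor 2, beside 3.05%, 2.49% and 3.93% of all genes, and 3.74% with all tumors.

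Other pericyte markers were set beside Rgs5 and Cspg4. Of 14 tested markers, 13 had a log2 fold change above 0, against 48.3% of all genes, with a median of 0.83, and 4 passed the looser rule, which 3.74% of all genes passed in this direction. Pdgfrb, the receptor through which endothelial PDGF-B recruits pericytes, was at 1.12, 3.02 and 3.61 FPKM in PBS tumors 1, 2 and 3 and at 6.67, 5.55 and 5.03 FPKM in GB2 tumors 1, 2 and 3. The groups did not overlap, and the log2 fold change was 1.11 ± 0.37 (SE, edgeR adjusted p = 0.561). The others were Anpep (aminopeptidase N, 1.55), Heyl (a Notch target, 1.69) and Ebf1 (a transcription factor, 1.28), with edgeR adjusted p between 0.190 and 0.515. Heyl and Ebf1 rested on as few as 5.5 and 14.25 read pairs in a tumor. Leaving out PBS tumor 3 raised the number passing to 8, and leaving out GB2 tumor 1 lowered it to 3, while the share of all genes passing in this direction was 4.02% and 3.05%. The groups did not overlap in 7 of the 14 markers, with the GB2 tumors higher, as in 8.61% of all genes tested. Mcam, a pericyte marker also named for melanoma cell adhesion, was the most abundant at 28.2 to 89.1 FPKM, with a log2 fold change of 0.06 that lay between -0.21 and 0.54 with a tumor left out. Vtn, at -0.99 and -0.48 without GB2 tumor 1 or -1.53 without GB2 tumor 2, was the only marker below 0. Ndufa4l2 was at 0.72, or 0.27 without GB2 tumor 3.

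Several of these markers are shared with other cells, since Pdgfrb and Anpep are also made by fibroblasts and Ebf1 by fat precursors and B cells. Fibroblast, endothelial and macrophage markers were higher in GB2 tumors by the looser rule in 9 of 10, 5 of 10 and 8 of 8 genes, beside 3.74% of all genes. Their median log2 fold changes were 1.501, 1.08 and 1.94, beside 0.25 for the 10 contractile and pericyte genes. The summed fibroblast markers were at 49.4 to 83.2 FPKM in PBS tumors and 136 to 203 FPKM in GB2 tumors, the endothelial markers at 13.6 to 15.9 and 29.4 to 34.0 FPKM. Acta2 and Tagln overlapped between the groups while these sums did not, but the difference between the lists was not tested. The part of these cell types in the pericyte marker levels was not tested either.

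**Figure D4:**
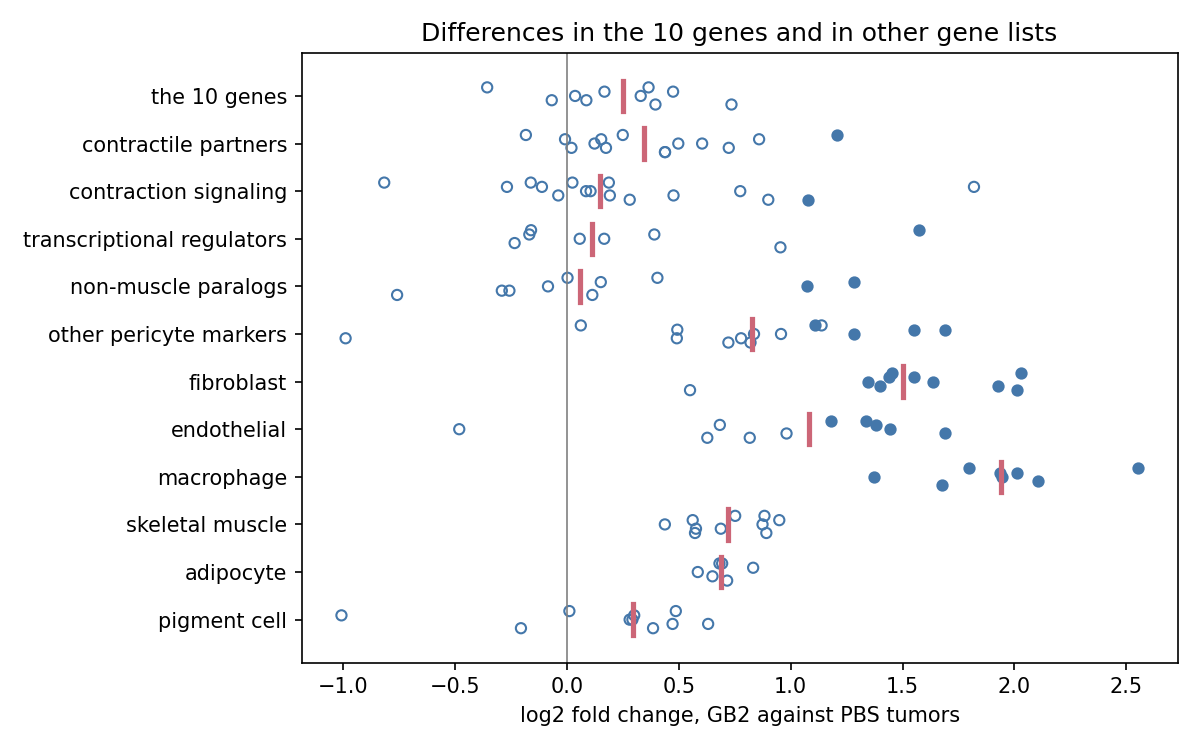
Log2 fold change (GB2 against PBS tumors, 3 per group) of each tested gene in the 10 contractile and pericyte genes and in other lists, from edgeR. Filled points passed the looser rule (unadjusted p under 0.05 and 2-fold or more), open points did not, and red bars are medians. The 10 genes lie around a median of 0.25 with no filled point, and the macrophage list lies around 1.94 with 8 filled points.

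The non-muscle and striated relatives of the 10 genes gave a comparison by family. The cytoplasmic actin genes Actb and Actg1 lay between 430 and 834 FPKM, far above Acta2, with log2 fold changes of 0.00 and 0.15. Of 10 non-muscle relatives, 2 passed the looser rule, beside 3.74% of all genes. None did without PBS tumor 3 and 1 did without GB2 tumor 3, where the shares of all genes were 4.02% and 2.49%. The 2 genes were Tagln2, a transgelin of blood and epithelial cells, at 1.07 ± 0.32 (SE, edgeR adjusted p = 0.448), and Myh10, a non-muscle myosin heavy chain, at 1.28 ± 0.44 (SE, edgeR adjusted p = 0.573). Myl6, an abundant myosin light chain, was at -0.76, or -0.12 without PBS tumor 1. Among 8 tested striated muscle relatives only Lmod2 passed the looser rule, at 1.22 ± 0.52 (SE, edgeR adjusted p = 0.715). None of these passed without PBS tumor 1, PBS tumor 2, GB2 tumor 1 or GB2 tumor 3, and 2 passed without PBS tumor 3, beside 2.49% to 4.63% of all genes in the fits with a tumor left out. The skeletal actin gene Acta1 was at 0.95. Acta1 exceeded Acta2 in every tumor, at 18.3 to 27.7 FPKM in PBS tumors and 37.2 to 54.5 FPKM in GB2 tumors. Actc1, the cardiac actin gene, was at 0.93, or 0.26 without GB2 tumor 2.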

How the data were processed

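Poly-A RNA of 6 tumors (RIN above 7.0 per the labels) was sequenced as stranded read pairs of 150 bases. The submitters' processing notes name cutadapt 1.9, HISAT2 2.2.1, StringTie 2.1.6, DESeq2, edgeR and the build mm10, without saying what each was used for. The authors deposited estimated counts for 33965 genes, unscaled and whole, with about 4 counts per read pair. The deposited FPKM values are scaled by transcript length and library size. Of 31999 gene IDs shared with GRCm38 (GENCODE M21), 641 (2.00%) had the same start and end, so gene positions are those of the table and printed sequences those of GRCm38. No column of per-sample values was left unmapped.

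Group differences were fitted on the counts by edgeR 4.0.16 under R 4.3.3 (filterByExpr with a minimum count of 10, TMM factors of 0.914 to 1.04, glmQLFTest, Benjamini-Hochberg adjustment over 19602 genes). CPM are scaled to TMM library sizes, with a prior count of 2 in log2 CPM. Standard errors and intervals come from the test statistic. The common dispersion of 0.164 is a biological variation of 40.5%. The computations were tested on simulated counts. Alternatives were other scaling, DESeq2 1.42.0, limma 3.58.1 on log2(FPKM + 1) and log2(FPKM + 0.1), no filter, counts divided by 4, a replicate block and each tumor left out.

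The members and lists were chosen with earlier results of these data known, so no list was tested. All 10 members are named. From the lists of related genes, values are given for genes passing the looser rule and for the 3 with the highest mean FPKM, while lists of other cell types are given by counts and sums. The values of some abundant signaling genes are not reported here. In the lists of related genes Pln, Myocd, Tcf21, Mylk3 and Myl3 had too few counts to be tested, and Nkx3-2 was not analysed here. The 5 genes most like the members have the smallest root-mean-square difference from the members' mean profile of centred log2 CPM. Nothing in the labels says that the tumor numbers pair the tumors. Deviations of same-numbered tumors from their group means correlated at 0.03, 0.15 and -0.24. These values cannot decide pairing, since differently numbered tumors were not compared. No batch is given in the labels.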

Additional observations from a re-analysis of the deposited data

How the results depend on the processing

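Among the 10 genes, depth limits the values of Cnn1, Lmod1 and Actg2, which rested on as few as 2.25, 12.0 and 9.5 read pairs in a tumor. It also limits related genes that passed the looser rule. Tbx18, Lmod2 and Heyl rested on as few as 3.5, 3.75 and 5.5 read pairs, and Irag1, Myh10 and Ebf1 on 6.25, 11.25 and 14.25. The number of genes called was 0 with edgeR and limma in every setting run and 373 with DESeq2 (337 higher, 36 lower), and the cause was not tested. By the looser rule, 913 genes passed with all tumors, 129 with limma on log2(FPKM + 1), and 707 to 1380 with a tumor left out, highest without PBS tumor 3. The median log2 fold change of the 10 genes stayed above 0, between 0.13 and 0.43. Of 139 values of the 10 genes under 14 alternatives, 126 kept their direction, 13 reversed and 0 were called, with a smallest adjusted p of 0.473. Counts divided by 4 gave no value for Cnn1. Tagln reversed to 0.15 and 0.25 with limma on log2(FPKM + 1) and log2(FPKM + 0.1), and Actg2 to 0.064 with the latter. With a tumor left out, values ran from -0.51 to 0.54 for Tagln, from -0.81 to 0.43 for Actg2, from -0.17 to 0.28 for Myh11, from -0.00060 to 0.44 for Myl9 and from -0.12 to 0.21 for Lmod1. Acta2, Cnn1, Rgs5, Mylk and Cspg4 kept their direction in every alternative run. A replicate block was also run, although nothing in the labels says that the numbers pair the tumors. With it Tagln was at 0.081 and Actg2 at 0.0079, 0 genes were called, 764 passed the looser rule, and the median of the 10 genes was 0.27. The cause of these reversals was not tested.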

Other observations

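The mean of the 10 centred profiles was highest in GB2 tumor 1, at 0.38 on the log2 CPM scale, and lowest in PBS tumor 3, at -0.47. The 5 tested genes outside all lists with the most similar pattern over the 6 tumors were Rgs9, Zfp423, Vps13a, Pex10 and Egr3, with root-mean-square differences of 0.101 to 0.109 on the log2 CPM scale. Their log2 fold changes were 0.31, 0.35, 0.24, 0.28 and 0.37, values that follow from the choice by pattern. Rgs9 had a mean of only 0.0626 FPKM. Among the 10 genes themselves, Myh11 was nearest to the mean profile, at 0.162, and Tagln farthest, at 0.786. The likeness describes 6 tumors and was not tested.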
